A study of Mus musculus with 12 samples.

Results

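Enzymes that write or erase histone marks were examined in the aging mouse testis. Members were the genes whose symbols name lysine demethylases (Kdm), lysine methyltransferases (Kmt, Setd, Ehmt, Suv39h, Ezh, Dot1l, Nsd), histone deacetylases (Hdac) or lysine acetyltransferases (Kat). Genes on the X and Y chromosomes were left out, and a transcript counted only if its assembly class placed it on the exons of the gene in the same direction (=, identical to a RefSeq transcript; j, sharing a splice junction; c, contained; o, other exon overlap). These rules gave 242 transcripts of 52 genes, from 71967 transcripts in all. The symbols alone matched 271 transcripts of 58 genes, of which 12 transcripts of 6 genes were X- or Y-linked and 17 were antisense or intronic. Of the member transcripts, 94 were identical to RefSeq, 145 were assembled transcripts that share a junction and 3 overlapped in another way. Nsd2, Nsd3, Kmt5b and Kmt5c were not analysed here.

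Total RNA from the whole testis of C57BL/6 mice was sequenced at postnatal month 3 (3M), 6 (6M), 12 (12M) and 18 (18M), with 3 mice at each age and 1 library per mouse. All mice were wild type males, and age was what differed between the groups. Whether mice of an age were littermates is not known from the study. In a whole organ, fewer cells of a type and less RNA per cell cannot be told apart.

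Histone marks are set by writers and removed by erasers, and each enzyme family acts on particular lysines. Acetyltransferases and methylation of H3K4, H3K36 and H3K79 are generally tied to active chromatin, while deacetylases and methylation of H3K9 and H3K27 are generally tied to silencing. In the testis these enzymes act while spermatogonia differentiate, while chromosomes pair and recombine in meiosis, and while spermatids acetylate and then discard most of their histones in favour of protamines.

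The 12 libraries held 50924104 to 71803379 deposited reads, and their normalization factors (TMM, the trimmed mean of M values) lay between 0.991 and 1.03. Libraries of the same age correlated at 0.991 to 0.994 across genes, on log2(CPM + 1), CPM being reads relative to the TMM-adjusted library size. Markers of spermatids, 12 in number, summed to FPKM values of 25331 to 36965 in the 12 libraries, so the defining germ cell genes of the labelled tissue were present. Of 8 Leydig cell markers, 3 fell with age in edgeR's quasi-likelihood test of the slope and none rose, and their summed FPKM was 1018 to 1176 at 3M and 704 to 975 at 18M. All 12 spermatid markers had positive slopes, though none passed the test. The median slope, in log2 per month, was -0.00019 over all genes and 0.0070 over genes with transcripts below 1500 nt. Whether transcript length contributed to the slopes of the markers was not tested. Of 4 epididymal markers, Lcn5 had at most 3 reads over all libraries, and the 4 together summed to 2.26 to 2.87 FPKM in the 12 libraries. Whether the make-up of the tissue contributed to the values of the enzymes was not tested.

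Histone-modifying enzymes were broadly expressed in the testis. All 52 passed the filter on low counts, with 129 to 25556 reads of a gene per library, and 38 of them lay above the median FPKM of all genes tested. Their median over genes of the mean FPKM, summed over the transcripts of a gene, was 8.63, beside 3.96 for all genes tested. Mean FPKM was 1 or more in 50 genes, 10 or more in 21 and 30 or more in 10.

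Highest of all was Ehmt2, which encodes the H3K9 methyltransferase G9a, at 88.7 FPKM over 12 libraries. Next came the deacetylase Hdac1 at 77.5 and Kat8, which acetylates H4K16, at 63.8 FPKM. The libraries of these 3 genes and of Dot1l, the only H3K79 methyltransferase, at 51.6 FPKM, kept a clear order at the top only for Ehmt2 and Hdac1, since the range of Kat8 overlapped that of Dot1l. Of the Dot1l sum, 69.0% came from 2 assembled transcripts that also cover exons of the neighbouring gene Sf3a2, and its RefSeq transcript was at 16.0 FPKM. Hdac11 (42.4 FPKM), the H3K9 demethylase gene Kdm4d (39.3), the H3K4 demethylase gene Kdm5b (34.6) and Kat5 (32.8), the catalytic subunit of the NuA4 acetyltransferase, followed with ranges that each overlapped the next.

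At the low end stood Setd7, a monomethyltransferase of H3K4 and of other proteins, at 0.408 FPKM, with every library below every library of the next gene up, Hdac7 at 0.97. Kdm8 (1.23 FPKM) and Kmt2a (1.43 FPKM) came above it. Over the order of 52 genes, neighbours overlapped in their library ranges except below Ehmt2, Hdac1, Ezh2, Hdac2 and Hdac7. The catalytic pair of the Polycomb complex differed in level, with Ezh2 at 22.6 and Ezh1 at 5.56 FPKM. G9a's partner Ehmt1 stood at 2.04 FPKM.

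**Figure D1:**
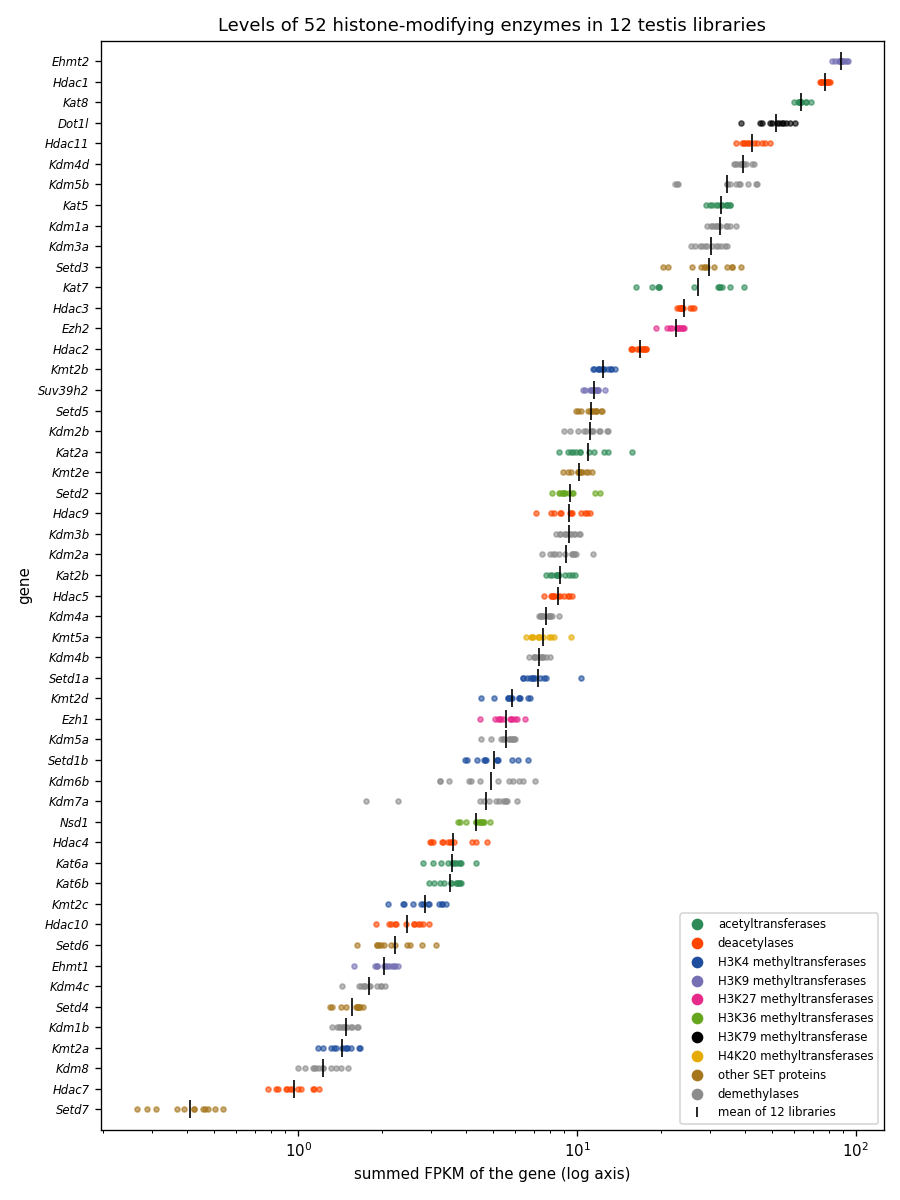
Summed FPKM of each of the 52 genes (log axis) in each of 12 libraries, coloured by role, with the mean of 12 libraries as a black bar. Ehmt2 lies highest at 88.7 and Setd7 lowest at 0.408, and most neighbours in the order overlap. The sums of Dot1l, Kat2a, Kdm3b, Kdm4d, Setd1a and Setd1b include assembled transcripts that also cover exons of neighbouring genes.

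Between mice of the same age the enzymes varied little. The pooled SD within ages of log2(CPM + 1) had a median of 0.10 over the 52 genes, beside 0.12 over all genes tested, with a range of 0.027 to 0.68. The widest spread was that of Kdm6b, a demethylase of H3K27, whose libraries ran from 9.36 to 36.5 CPM. Together the members took 3724 to 4206 RPM of a library, scaled to its deposited total without TMM, with a mean of 4044 ± 156 (SD, n = 3) for the 3M mice, 4026 ± 156 for 6M, 3960 ± 213 for 12M and 3886 ± 155 for 18M.

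The first comparison asked which enzymes followed age over all 4 ages, as a slope in log2 per month. No member passed edgeR's quasi-likelihood test at an adjusted p of 0.05, where 0.41% of all 18545 genes did. The lowest adjusted p of a member was 0.112. At an unadjusted p of 0.05 or less stood 18 of 52, 6 with a positive and 12 with a negative slope, beside 17.5% of all genes (8.26% positive, 9.23% negative). Without the third 18M mouse the 18 became 9, while the count over all genes went from 3244 of 18545 to 2196 of 18739. DESeq2 called 4 members, Setd7, Kdm2a and Kmt2c with negative slopes and Hdac11 with a positive slope, where it called 2.5% of all genes. Of the 52 slopes, 14 were above 0 and 38 below, with a median of -0.0048 per month beside -0.00019 over all genes.

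The second comparison set the oldest mice against the youngest, using the same 3M and 18M libraries as the slope. Again no member passed edgeR's test, where 0.0662% of 18130 genes did, and the lowest adjusted p was 0.177. At an unadjusted p of 0.05 or less stood 15 of 52, 5 higher and 10 lower at 18M, beside 13.5% of all genes (6.28% higher, 7.25% lower). The 15 became 7 without the second 3M mouse and 6 without the third 18M mouse. Over all genes the count also went down, from 2452 of 18130 to 1576 of 18364 and 1471 of 18333. DESeq2 called Kat7 as higher and Kdm2a as lower, and 1.16% of all genes. The 3M and 18M libraries did not overlap in CPM for 18 members, 5 higher and 13 lower at 18M, where 20.3% of all genes did not overlap (9.58% higher, 10.7% lower). The members' median log2 fold change was -0.071, beside -0.0019 over all genes.

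**Figure D2:**
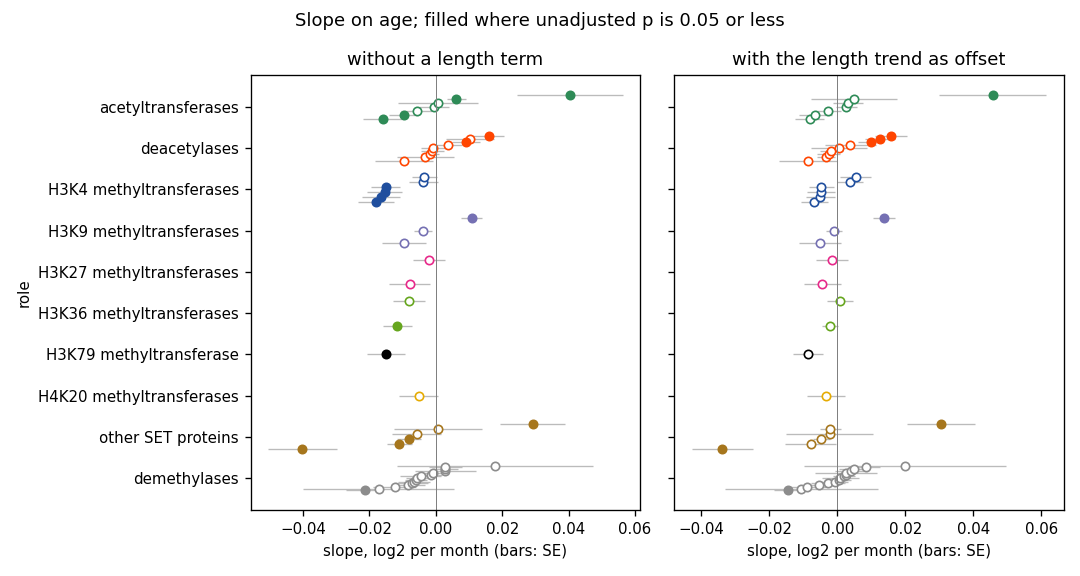
Slope on age of each gene in log2 per month with its SE, by role, without a length term (left) and with the trend on transcript length as an offset (right). Points are filled where the unadjusted p is 0.05 or less, 18 genes on the left and 8 on the right, and the 4 filled H3K4 methyltransferases at the left are open at the right.

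The size of the transcripts moved with these values. The members were long, with a median FPKM-weighted transcript length of 4854 nt beside 2652 nt for all genes tested, and 33 of 52 reached 4000 nt, a length that 26.8% of all genes reached. Over all genes the median log2 fold change from 3M to 18M went down with length, from 0.089 below 1500 nt to 0.022 at 1500 to 2500 nt, -0.021 at 2500 to 4000 nt, -0.056 at 4000 to 6000 nt, -0.087 at 6000 to 8000 nt and -0.12 from 8000 nt. In the same classes the 12 members of 8000 nt or more had a median of -0.19, and the 9 members of 1500 to 2500 nt a median of -0.0076. Across the 52 genes log2 length and log2 fold change had r = -0.49, and across all 18130 genes r = -0.19, where genes of 1 library share its depth and are not independent.

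The library with the lowest long-minus-short difference was from 12M, at -0.28 on the log2 scale, and the 18M libraries lay at -0.21 to -0.045 where the 3M libraries lay at -0.0093 to 0.18. With the length trend of each library as an offset, a step chosen after seeing the data, 8 members stood at an unadjusted p of 0.05 or less for the slope, beside 14.1% of all genes (7.18% positive, 6.91% negative), and no member passed the adjusted test, where 0.345% of all genes did. These were Suv39h2, Hdac11, Setd3, Kat7, Hdac5 and Hdac4 with positive slopes and Setd7 and Kdm2a with negative slopes, and 7 of them were among the 18 without the offset. For 18M against 3M none passed the adjusted test, beside 0.0717% of all genes, and at an unadjusted p of 0.05 or less the count was 8 of 52, beside 11.1% of all genes, and 7 of them were among the 15. What set the trend on length was not tested.

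**Figure D3:**
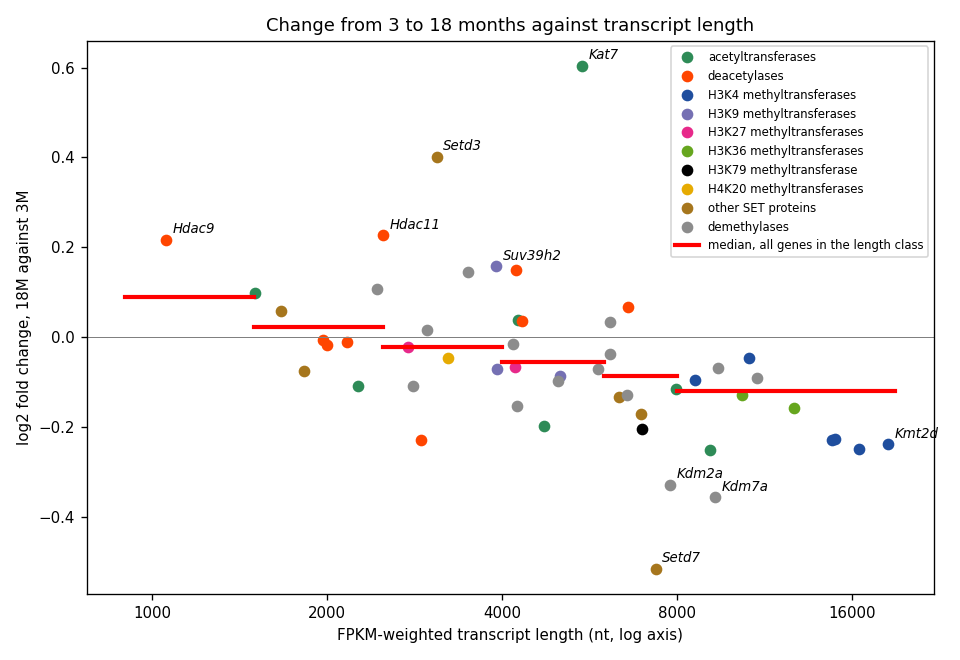
Log2 fold change of 18M against 3M for the 52 genes against their FPKM-weighted transcript length (log axis), with the median of all genes in each of 6 length classes as red lines. The medians step down from 0.089 to -0.12, most long methyltransferases lie below 0, and Kat7, Setd3 and Setd7 lie farthest from the lines.

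Promoter sequence from RefSeq was available for 39 of 52 members, on GRCm38.p6. For 5 of the genes that stood at a low p with and without the length offset, the 250 bases before the RefSeq start are shown, 5′ to 3′, with GGGCGG and its complement CCGCCC, the GC box bound by SP factors, in capitals.
Kat7: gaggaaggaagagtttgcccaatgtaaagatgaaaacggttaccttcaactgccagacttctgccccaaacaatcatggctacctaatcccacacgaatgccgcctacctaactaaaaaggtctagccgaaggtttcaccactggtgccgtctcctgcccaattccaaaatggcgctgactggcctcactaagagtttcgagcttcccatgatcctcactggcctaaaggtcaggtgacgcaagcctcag
Setd7: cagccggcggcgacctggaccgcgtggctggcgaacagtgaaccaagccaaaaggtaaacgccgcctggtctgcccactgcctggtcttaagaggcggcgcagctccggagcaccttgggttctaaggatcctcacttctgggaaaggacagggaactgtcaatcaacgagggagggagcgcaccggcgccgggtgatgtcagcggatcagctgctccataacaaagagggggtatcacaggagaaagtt
Hdac11: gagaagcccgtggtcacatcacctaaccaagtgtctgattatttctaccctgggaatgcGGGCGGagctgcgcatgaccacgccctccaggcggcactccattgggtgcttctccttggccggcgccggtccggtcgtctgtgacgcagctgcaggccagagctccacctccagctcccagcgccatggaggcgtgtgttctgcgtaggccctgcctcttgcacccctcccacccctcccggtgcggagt
Setd3: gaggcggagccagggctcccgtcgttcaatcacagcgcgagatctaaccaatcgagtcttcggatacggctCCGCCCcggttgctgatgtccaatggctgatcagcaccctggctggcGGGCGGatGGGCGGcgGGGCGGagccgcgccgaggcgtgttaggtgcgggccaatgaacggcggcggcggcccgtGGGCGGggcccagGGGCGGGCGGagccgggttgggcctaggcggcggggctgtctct
Suv39h2: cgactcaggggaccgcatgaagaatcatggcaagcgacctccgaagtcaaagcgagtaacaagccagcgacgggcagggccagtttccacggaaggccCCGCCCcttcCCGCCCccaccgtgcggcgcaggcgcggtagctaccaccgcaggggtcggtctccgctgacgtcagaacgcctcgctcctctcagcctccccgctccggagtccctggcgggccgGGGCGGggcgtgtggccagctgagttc
Kat7 lies at chr11:95310247-95310496 on the minus strand, Setd7 at chr3:51560824-51561073 on the minus strand, Hdac11 at chr6:91156565-91156814 on the plus strand, Setd3 at chr12:108179285-108179534 on the minus strand and Suv39h2 at chr2:3474987-3475236 on the minus strand. A GC box on either strand was found in 23 of the 39 member promoters, beside 32.9% of all 27025 promoters of this length, with 7 matches in Setd3, 3 in Suv39h2, 1 in Hdac11 and none in Kat7 or Setd7. CCAAT, on either strand, was found in 16 of 39 members beside 34.5% of all promoters. TATAAA was found in Hdac9 only among the members, beside 13.0% of all promoters, and TGACGTCA, the cAMP response element, in Suv39h2 only, beside 1.62%. The member promoters held a median of 20 CpG in 250 bases beside 6 over all promoters. The 27025 promoters, 1 per gene symbol, were not limited to the genes tested here, while all members were expressed.

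Among the acetyltransferases, Kat7, which acetylates H3K14 and H4 around replication origins and genes, had the largest difference of any member. Its libraries were at 114, 149 and 121 CPM at 3M, 217, 117 and 94.2 CPM at 6M, 115, 216 and 187 CPM at 12M, and 197, 192 and 195 CPM at 18M. The 3M and 18M libraries did not overlap, but 6M and 12M held libraries of both levels, so that 6 of 12 libraries were at 94.2 to 149 and the other 6 at 187 to 217. The log2 fold change from 3M to 18M was 0.60 (SE 0.095) with an adjusted p of 0.177 in edgeR's quasi-likelihood test, and 0.0126 without the second 3M mouse. In DESeq2 the adjusted p was 3.86e-07. Summed FPKM of Kat7 was 21.9 ± 3.83 (SD, n = 3) at 3M and 32.6 ± 0.619 at 18M.

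Kat2a, the GCN5 acetyltransferase of SAGA and ATAC, had the lowest p from 3M to 6M. Its libraries were at 56.6, 61.8 and 64.4 CPM at 3M, 52.1, 40.0 and 39.6 CPM at 6M, 61.4, 52.7 and 73.6 CPM at 12M, and 58.2, 53.4 and 47.8 CPM at 18M. All 3M libraries were above all 6M libraries. Its log2 fold change was -0.47 (SE 0.11) from 3M to 6M and 0.51 (SE 0.15) from 6M to 12M, comparisons that share the 6M libraries, with adjusted p of 0.925 and 0.528 in edgeR's test and with DESeq2 calling the first.

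Of this gene's FPKM, 54.8% came from an assembled transcript that runs on over the exons of its neighbour Dhx58. Without it, the log2 fold change of Kat2a was 1.56 (SE 0.51) from 3M to 18M, in the other direction from the -0.20 (SE 0.085) of the whole sum. The RefSeq transcript NM_001038010 of Kat2a stood at 0.731, 0.614 and 0.528 FPKM at 3M and at 0.638, 4.92 and 5.60 FPKM at 18M, so that 1 of the 3 old mice was within the range of the young. Reads can be moved by the assembly between the read-through and the RefSeq transcripts, and which share is true was not tested.

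Kat8 was at 101 to 102 CPM at 3M and 106 to 112 at 18M, with a log2 fold change of 0.099 (SE 0.045). Kat6a, of the MOZ complex, had a log2 fold change of -0.25 (SE 0.10), and its relative Kat6b -0.12 (SE 0.074). Kat5 and Kat2b, the PCAF acetyltransferase, were at -0.11 (SE 0.063) and 0.037 (SE 0.075). Of 7 acetyltransferases, 3 had a fold change above 0 and none passed the test.

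Of 9 deacetylases, Hdac11, the sole class IV enzyme, had the lowest p. Its libraries were at 111, 104 and 98.7 CPM at 3M, 115, 104 and 103 CPM at 6M, 109, 110.4 and 133 CPM at 12M, and 117, 124 and 127 CPM at 18M. All 18M libraries lay above all 3M and 6M libraries, and the 12M libraries overlapped both. The log2 fold change from 3M to 18M was 0.23 (SE 0.061), with an adjusted p of 0.291 in edgeR's test, and the slope was 0.0159 (SE 0.00465) per month with an adjusted p of 0.139. In DESeq2 the slope's adjusted p was 0.041. Hdac11 had 1 transcript, identical to RefSeq, of 2494 nt. It shares 594 nt with exons of Gm44002 on the other strand, and reads there cannot be told apart in libraries without strand.

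The class I deacetylases, which sit in the Sin3, NuRD, CoREST and NCoR complexes, had log2 fold changes near 0, with Hdac1 at -0.0076 (SE 0.046), Hdac2 at -0.017 (SE 0.052) and Hdac3 at -0.011 (SE 0.064). Each of these differences was smaller than its SE, and each turned above 0 with a library left out. Of class II, Hdac5 had a log2 fold change of 0.15 (SE 0.068) and Hdac4 of 0.066 (SE 0.065). Hdac9 was at 0.22 (SE 0.092), with a weighted length of 1058 nt over its 6 transcripts. Most of its level came from short assembled transcripts of 364 to 632 nt, at 1.82 to 2.36 FPKM each. Its RefSeq transcripts were at 0.583 and 0.172 FPKM, and with RefSeq transcripts alone its log2 fold change was 0.20 (SE 0.16). Hdac7 was at 0.035 (SE 0.16). Hdac10 was at -0.23 (SE 0.14).

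The 6 H3K4 methyltransferases grouped here were Kmt2a, Kmt2b, Kmt2c, Kmt2d, Setd1a and Setd1b, and Setd7 was counted with the other SET proteins. All 6 had negative fold changes from 3M to 18M without the length offset. With it 4 did, and Setd1a was at 0.074 and Kmt2b at 0.0061. The offset took Setd1a at its weighted length of 10646 nt, read-through transcripts included, where its RefSeq transcript has 5931 nt. At an unadjusted p of 0.05 or less stood 4 of the 6 without the offset, beside 13.5% of all genes (7.25% lower). With the offset none did, beside 11.1% of all genes. The 4 became 0 without the second 3M mouse or without the third 18M mouse, beside 1576 of 18364 and 1471 of 18333 genes. Without read-through transcripts the 4 became 3, beside 2450 of 18130 genes. With RefSeq transcripts alone, 1 of the 6 stood at such a p, beside 1565 of 17675 genes, and 1 fold change was above 0. Of all genes of 8000 nt or more at such a p, 92.5% were lower at 18M. Kmt2a (MLL1), which encodes the founding MLL protein, was at 24.0, 28.8 and 25.2 CPM at 3M, 28.9, 26.2 and 26.5 CPM at 6M, 26.1, 26.4 and 23.7 CPM at 12M, and 22.9, 21.7 and 21.0 CPM at 18M. The 18M libraries lay below all others. From 3M to 18M its log2 fold change was -0.25 (SE 0.084) with an adjusted p of 0.308 in edgeR's test. With the length offset it was -0.095 (SE 0.056).

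Kmt2c, which methylates H3K4 at enhancers together with Kmt2d, was at 48.6, 51.7 and 44.3 CPM at 3M, 46.9, 47.1 and 47.8 CPM at 6M, 47.2, 46.0 and 40.8 CPM at 12M, and 42.3, 43.3 and 38.0 CPM at 18M. The 3M and 18M libraries did not overlap, and 1 12M library was among the 18M values. Its log2 fold change was -0.23 (SE 0.078), and -0.082 (SE 0.064) with the offset. Kmt2d had 112, 131 and 112 CPM at 3M and 110.0, 101 and 90.1 at 18M, a log2 fold change of -0.24 (SE 0.093). These 3 genes have weighted lengths of 16439, 14952 and 18423 nt.

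Setd1b, a COMPASS catalytic subunit, was at -0.23 (SE 0.076) for the sum of its transcripts, of which 72.2% came from read-through transcripts over neighbouring genes, and at -0.68 (SE 1.16) without them. Its paralogue Setd1a was at -0.046 (SE 0.056), with 86.6% from such transcripts, and at -0.70 (SE 0.94) without them. Kmt2b (MLL2) was at -0.096 (SE 0.050). Kmt2b, Kmt2a and Kmt2d were the members at an unadjusted p of 0.05 or less between 12M and 18M, with log2 fold changes of -0.18 (SE 0.057), -0.22 (SE 0.070) and -0.24 (SE 0.080).

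Of 3 H3K9 methyltransferases, Suv39h2, which is expressed chiefly in the testis, had the lowest p. Its libraries were at 44.4, 43.6 and 46.4 CPM at 3M, 47.0, 46.8 and 46.9 CPM at 6M, 53.4, 48.8 and 48.9 CPM at 12M, and 49.6, 49.6 and 50.7 CPM at 18M. All 3M libraries lay below all others. The log2 fold change from 3M to 18M was 0.16 (SE 0.049) with an adjusted p of 0.299 in edgeR's test, and 0.19 (SE 0.050) with the length offset. Ehmt2 was at 375, 379 and 394 CPM at 3M and 363, 371 and 359 at 18M, with a log2 fold change of -0.071 (SE 0.039). Ehmt1 was at -0.087 (SE 0.074).

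Both H3K27 methyltransferases had log2 fold changes smaller than their SE, -0.021 (SE 0.068) for Ezh2 and -0.067 (SE 0.076) for Ezh1. For H3K36, Setd2, which places the trimethyl mark behind RNA polymerase II, was at -0.13 (SE 0.075), and Nsd1, a dimethyltransferase, at -0.16 (SE 0.072). Their weighted lengths of 10346 and 12743 nt put both in the longest class. Kmt5a, which monomethylates H4K20, was at -0.046 (SE 0.067).

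Dot1l stood at 382, 435 and 426 CPM at 3M, 425, 394 and 386 CPM at 6M, 351, 419 and 305 CPM at 12M, and 374, 369 and 336 CPM at 18M. The 3M and 18M libraries did not overlap, and the 12M libraries ran from below the 18M to within the 3M values. From 3M to 18M its log2 fold change was -0.20 (SE 0.065), and of the FPKM 69.0% came from 2 transcripts that share 200 nt or more with exons of the splicing factor gene Sf3a2. Without them it was -0.34 (SE 0.29).

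Setd7 had the lowest p for the slope of all members and the lowest level. Its libraries were at 3.71, 3.60 and 3.60 CPM at 3M, 4.24, 3.33 and 3.87 CPM at 6M, 2.92, 3.37 and 2.28 CPM at 12M, and 3.07, 2.46 and 2.10 CPM at 18M. The 18M libraries lay below all 3M and 6M libraries. The slope was -0.0402 (SE 0.0103) per month with an adjusted p of 0.112 in edgeR's test and 0.0188 in DESeq2, and with the length offset -0.0339 (SE 0.009).

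Setd3, known as a methyltransferase of a histidine in actin, was at 68.8, 86.7 and 96.7 CPM at 3M, 103, 96.1 and 68.2 CPM at 6M, 98.9, 115 and 116 CPM at 12M, and 123, 117 and 93.3 CPM at 18M, so that the lowest 18M library lay within the 3M range. The log2 fold change was 0.40 (SE 0.14) with an adjusted p of 0.320 in edgeR's test. The other SET proteins Setd5, Kmt2e, Setd4 and Setd6 were at -0.17 (SE 0.055), -0.13 (SE 0.057), -0.076 (SE 0.13) and 0.058 (SE 0.16).

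Among 15 demethylases, Kdm2a, which removes H3K36 methylation at CpG islands, had the lowest p. Its libraries were at 82.9, 92.6 and 78.0 CPM at 3M, 84.5, 81.3 and 72.3 CPM at 6M, 68.7, 84.3 and 66.4 CPM at 12M, and 70.5, 68.8 and 62.5 CPM at 18M. The 3M and 18M libraries did not overlap. From 3M to 18M its log2 fold change was -0.33 (SE 0.079), with an adjusted p of 0.281 in edgeR's test and 0.0186 in DESeq2. With the length offset the log2 fold change of Kdm2a was -0.24 (SE 0.061). Its relative Kdm2b was at -0.13 (SE 0.077).

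The demethylases known for roles in male germ cells did not pass the test. Kdm3a (JHDM2A), which is needed for transcription of protamine genes, was at -0.070 (SE 0.084), Kdm4d at -0.11 (SE 0.053) and Kdm5b at -0.069 (SE 0.045). Kdm1a (LSD1), which demethylates H3K4 and supports spermatogonia, was at 0.016 (SE 0.088), and its relative Kdm1b at -0.098 (SE 0.081). Kdm4a, Kdm4b, Kdm4c, Kdm5a and Kdm8 ranged from -0.15 for Kdm4c to 0.11 for Kdm8.

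Kdm7a, a demethylase of H3K9 and H3K27, had 2 libraries apart from the rest. At 3M it was at 55.3, 44.3 and 52.3 CPM, at 6M at 55.3, 22.7 and 58.8, at 12M at 48.4, 54.5 and 51.2, and at 18M at 54.6, 46.5 and 17.6. The second 6M mouse and the third 18M mouse were low. The log2 fold change of -0.36 (SE 0.36) was within its SE and no direction was read from it.

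**Figure D4:**
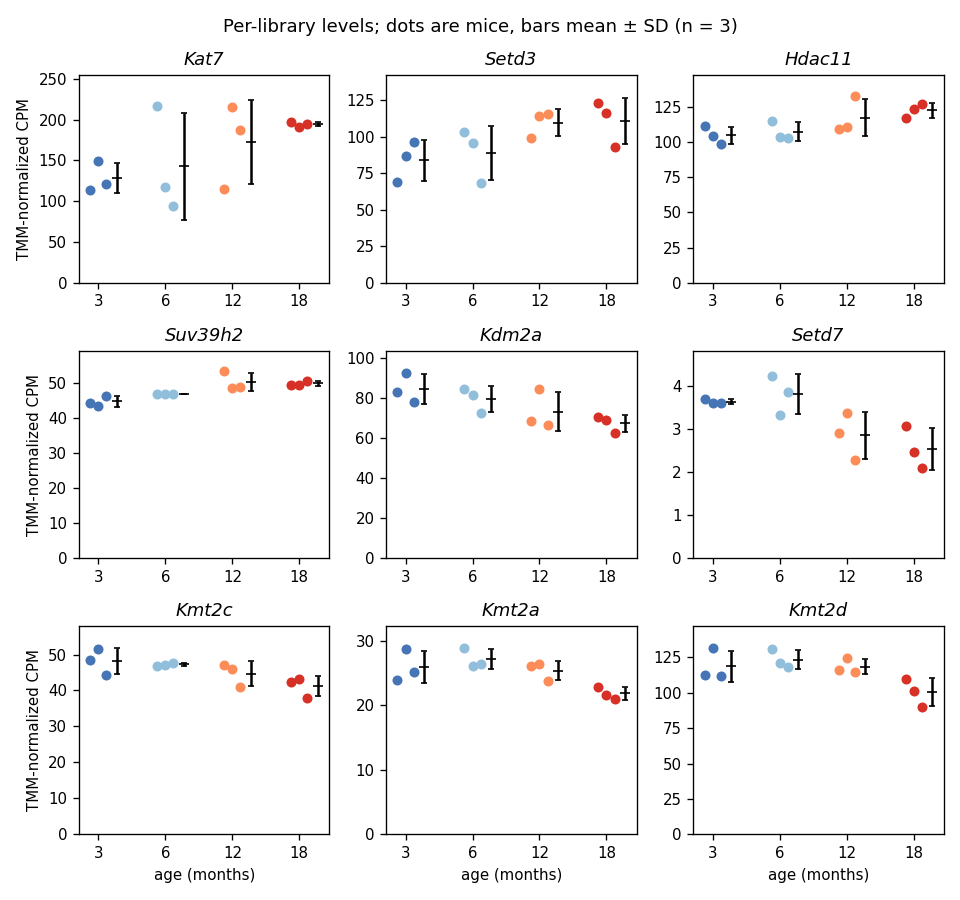
TMM-normalized CPM of 9 genes in each of 12 libraries by age, with the mean ± SD of 3 mice beside the points and axes from 0. Kat7 splits into libraries near 94 to 149 and near 187 to 217, and the 18M libraries of Kdm2a, Setd7, Kmt2c, Kmt2a and Kmt2d lie below those of 3M.

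Between neighbouring ages no member passed edgeR's test either. From 3M to 6M 2 members (Kat2a and Hdac10, both lower), from 6M to 12M 2 (Kat2a higher and Setd7 lower) and from 12M to 18M 3 (Kmt2a, Kmt2b and Kmt2d, all lower) were at an unadjusted p of 0.05 or less, beside 4.0%, 8.48% and 3.48% of all genes. The adjusted test called 0.0497%, 0.0551% and 0.0275% of all genes. DESeq2 called Kat2a from 3M to 6M, where it called 0.312% of all genes, and no member in the later steps, where it called 0.488% and 0.153%.

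Mean levels were also followed from step to step. Of 51 members with a mean FPKM of 1 or more at some age, 14 had a mean that went the same way at each step, 5 up and 9 down, or 27.5%, beside 14.9% of all genes (6.34% up, 8.53% down). Higher at each step were Kat7 (21.9 to 32.6 FPKM), Setd3 (24.9 to 34.2), Hdac9 (8.36 to 9.93), Hdac11 (39.5 to 45.8) and Hdac5 (8.16 to 9.17). Lower at each step, with the largest ratios, were Kdm2a (10.2 to 8.14), Kat6a (3.86 to 3.21), Kdm5b (38.0 to 31.7) and Setd2 (10.2 to 8.73). On TMM-normalized CPM the count was 13, of which 11 were among the 14, and Hdac9 (9.62, 11.1, 10.7 and 11.2 CPM in order of age), Kdm5b (354, 357, 342 and 337 CPM) and Kat5 no longer went the same way at each step. The counts rested on means without a test and were 9 without the first or the third 6M mouse or without the second 12M mouse.

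At the level of transcripts no member passed edgeR's test. Of 227 transcripts tested for the slope 17 were at an unadjusted p of 0.05 or less, beside 7.15% of all 58289, and of 214 tested between 3M and 18M 12 were, beside 5.4% of all 54472. The adjusted test called 0.0103% and 0.108% of all. DESeq2 called 5 and 9 members where it called 1.58% and 3.14% of all. Of its 9 calls, Kmt2c had 2, Kat5 had 2, and Hdac10, Kmt2e, Setd3, Hdac11 and Kat2a had 1 each.

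The share of a gene's FPKM taken by a transcript varied widely between libraries. In genes with several transcripts, 110 member transcripts had a mean FPKM of 1 or more, and the median range of a share over 12 libraries was 30.4 percentage points, with 33 transcripts over 50 points. Shares did not overlap between 3M and 18M for 5 of them, or 4.55%, beside 10.8% of 24033 transcripts of all genes. The largest was an assembled Kmt2c transcript of 58 exons that lacks the RefSeq start, at 45.0%, 68.7% and 95.0% of the gene at 3M, at 60.3%, 0% and 1.51% at 6M, at 67.1%, 56.2% and 55.0% at 12M and at 1.50%, 0% and 3.21% at 18M. The 18M libraries were all below 4%, but so were the second and the third 6M mice, so that the shares did not follow age in order.

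Another Kmt2c transcript, of 59 exons and 16821 nt, was at 2.23, 2.36 and 1.85 FPKM at 18M and 2.43 in the third 6M mouse, beside 0 to 0.468 at 3M. The remaining 4 were transcripts of Setd1b (mean share 34.9% at 3M and 65.7% at 18M), Kat2b (35.6% and 8.49%), Ezh2 (16.4% and 5.44%) and Setd5 (4.61% and 7.23%). Single libraries set part of these means: without the first 3M mouse Ezh2 was at 6.87% at 3M, and without the second 18M mouse Kat2b was at 2.86% at 18M. Libraries of 6M or 12M lay outside the range of both ages in Setd1b (8.64%, 81.2%, 85.8% and 87.7%), in Ezh2 (0.765% and 3.20%) and in Setd5 (46.0%).

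**Figure D5:**
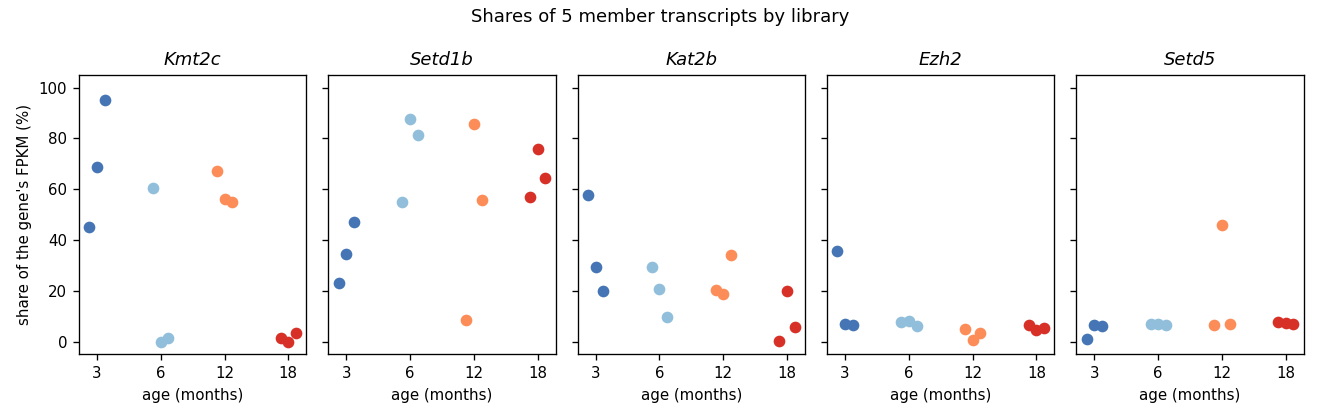
Share of its gene's FPKM (%) held by 5 member transcripts in each of 12 libraries by age. The Kmt2c transcript is at 45.0% to 95.0% at 3M and at most 3.21% at 18M, with 2 of the 6M libraries also near 0.

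In 26 of 52 genes the leading transcript was assembled rather than identical to RefSeq. Of the 26, 9 began within 100 nt of the RefSeq start and 6 began 1000 nt or more upstream of it, of which those of Setd1a, Setd1b and Kdm3b were read-through transcripts. The leading transcript of Suv39h2 began 3849 nt upstream, at base 3478835 of chromosome 2, and held 85.3% of the gene on average, 74.6% to 93.0% over libraries. Assembled transcripts of Setd2 and Kdm3a began 2503 and 1201 nt upstream. For Kat7 an assembled transcript of 4541 nt began 22004 nt upstream, at base 95332250 of chromosome 11, with 1.79 to 25.7 FPKM over libraries. The promoters shown above lie at the RefSeq starts, and the upstream starts of Suv39h2 and Kat7 are not in them. The leading Setd3 transcript, with 46.5% of the gene on average, began 456 nt upstream, also outside the bases shown.

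Partner genes outside the set, the subunits of the complexes these enzymes work in and other histone methyltransferases and demethylases, were tested in the same fits. Of 90 listed, 88 were tested, and none passed edgeR's test for the slope or for 18M against 3M, while DESeq2 called 3 for the slope (Dpy30, Trrap and Arid4b), beside 2.5% of all genes, and none for 18M against 3M, beside 1.16%. Dpy30 is a core COMPASS subunit, Trrap a scaffold of acetyltransferase complexes and Arid4b a Sin3 subunit. At an unadjusted p of 0.05 or less, 5 had positive and 11 negative slopes, beside 17.5% of all genes (8.26% positive, 9.23% negative), and their median slope was -0.0023 per month. For 18M against 3M the counts were 4 and 10, beside 13.5% of all genes (6.28% higher, 7.25% lower), with a median of -0.030. Of 12 COMPASS subunits 1 was positive and 2 were negative at such a p for the slope, and of 8 PRC2 genes 1 was positive.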

How the data were processed

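The authors removed ribosomal RNA (Ribo-Zero), prepared unstranded paired-end libraries (TruSeq v2) and sequenced them on a HiSeq 4000. Reads were aligned with HISAT2 to mm10, and StringTie 1.3.3b served to assemble and then quantify a merged set of transcripts. The authors deposited estimated counts, which are whole numbers derived from coverage and length, and FPKM values scaled by transcript length and mapped fragments in each library, with no normalization between libraries. Long transcripts, overlapping genes and read-through transcripts can shift how StringTie divides reads, and without strand a gene and its antisense partner cannot be told apart.

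Transcripts of classes =, c, j and o were summed per gene. Counts were fitted over all genes or transcripts with edgeR 4.0.16 in R 4.3.3 (TMM, filterByExpr, quasi-likelihood F-test, Benjamini-Hochberg adjustment over all features tested, calls at an adjusted p of 0.05 or less), on all 12 libraries for the slope and on both ages alone for pairs. SEs were taken back from the F statistic. Alternatives were DESeq2 1.42.0, limma 3.58.1 on log2(FPKM + 0.1) or log2(FPKM + 1), other scalings and filters, class = only, and each library left out. Added after seeing the data were the removal of assembled transcripts sharing 200 nt or more with same-strand exons of another GENCODE vM21 gene, and an offset for each library's trend on transcript length (lowess span of 0.3). Scripts were tested on simulated data. Groups came from the sample labels; p-values measure the spread between 3 mice an age. Precision rests on that spread, at 50924104 to 71803379 reads per library.

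Named were members called in any test, the 8 of lowest slope p, the 8 highest and 4 lowest levels, a list of well-known enzymes, and transcripts whose shares did not overlap. Other members are named for completeness. The members and lists were chosen with earlier results of these data known. Of 18 pairs of libraries of the same mouse number, 1 had deviations correlated above 0.1, the third mice of 12M and 18M (r = 0.156). Whether libraries of a number were handled together was not tested.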

Additional observations from a re-analysis of the deposited data

Results flagged for a closer look

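Data outside the comparisons also held signal. Within member genes, 16 antisense or intronic assembled transcripts had more than 3 reads in every library, the limit that a count of 0 allows. The highest was an antisense transcript at Suv39h2, at a mean of 7.77 FPKM with 361 to 536 reads per library. Of the X- and Y-linked genes of the same families, 6 had more than 3 reads in every library, from Hdac6 at 17.3 FPKM to Hdac8 at 0.352 FPKM. None passed edgeR's test of the slope, beside 0.41% of all genes. DESeq2 called 1, Kdm6a, with an adjusted p of 0.0365, beside 2.5% of all genes. In edgeR's test Kdm6a (adjusted p of 0.118) and Kdm5c (adjusted p of 0.243) were at an unadjusted p of 0.05 or less, beside 17.5% of all genes. Mean FPKM at 3M and 18M was 1.38 and 1.07 for Kdm6a, and 1.97 and 1.68 for Kdm5c. Single outlying libraries were not tested.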

How the results depend on the processing

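Outside DESeq2 no member was called under the other scalings, filters, limma fits, class = only, the log2 of age, the removal of read-through transcripts or the length offset, with 1 exception, Kat7 without the second 3M mouse. With each library left out in turn, the number of members called was 0 for the slope and 0 to 1 for 18M against 3M. DESeq2 called 4 members for the slope, 2 for 18M against 3M, 1 from 3M to 6M, and 5 and 9 transcripts for the slope and 18M against 3M. At an unadjusted p of 0.05 or less stood 18 and 15 genes and 17 and 12 transcripts. The gene counts became 8 and 7 with class = only, of which 6 and 5 were among the 18 and 15. Over all genes, 2244 of 18251 and 1565 of 17675 stood at such a p there. With the length offset the member counts were 8 and 8, beside 14.1% and 11.1% of all genes. Of these members 7 and 7 were among the 18 and 15. Leaving out single libraries gave 9 to 20 and 6 to 17 members. The lowest and highest counts over all genes were 2196 of 18739 and 3604 of 18740 for the slope. For 18M against 3M they were 1471 of 18333 and 2755 of 18323. The members with the same direction at every step were 9 to 17 with a library left out. The median log2 fold change from 3M to 18M was -0.024 with the length offset, which takes the trend on length out by construction, and -0.092 to -0.049 with a library left out. With the mouse number as a replicate block no member was called in any test. At an unadjusted p of 0.05 or less were 17 and 11 members, beside 3278 of 18545 and 1795 of 18130 genes.

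Of 1297 values of single genes under the alternatives (log2 fold changes of all 52 members from 3M to 18M, and slopes of the 18), 1249 kept their direction. The 18 slopes had been picked for a low p in the same data, so this count says little of them. Over the slopes of all 52 members, 54 of 1196 values took the other direction. Under at least 1 alternative, 21 of 52 members turned for the slope and 26 of 52 for 18M against 3M. With class = only, which keeps RefSeq transcripts alone, slopes were 0.0109 for Kmt2d and 0.0702 for Setd1b per month, and log2 fold changes turned to 0.61 for Ehmt1, -2.69 for Hdac4, -0.016 for Hdac5, 1.95 for Kat2a, 0.14 for Kat5, -0.0045 for Kdm1a, 0.30 for Kdm2b, -0.67 for Kdm4b, -0.27 for Kdm6b, 0.11 for Kdm7a, 0.58 for Setd1b and 0.13 for Setd5. With the length offset they turned to 0.038 for Kdm3b, 0.028 for Kdm4a, 0.028 for Kdm5a, 0.039 for Kdm5b, 0.0061 for Kmt2b and 0.074 for Setd1a. Without read-through transcripts Kat2a turned to 1.56. In limma on log2(FPKM + 0.1) and log2(FPKM + 1), Hdac4 was at -0.11 and -0.088, Kat2a at 0.15 and 0.14, and Kdm4b at -0.0019 and -0.0015. With a library left out, Ezh2 at -0.060 to 0.036, Hdac1 at -0.034 to 0.021, Hdac2 at -0.040 to 0.010, Hdac3 at -0.045 to 0.055, Hdac7 at -0.078 to 0.17, Kat2b at -0.024 to 0.11, Kdm1a at -0.041 to 0.10, Kdm3b at -0.086 to 0.0065, Kdm4a at -0.059 to 0.017, Kdm6b at -0.30 to 0.92, Setd4 at -0.16 to 0.034 and Setd6 at -0.073 to 0.21 took values on both sides of 0. The cause was not tested. Low counts limit Setd7, Setd4, Setd6 and Kdm8, and estimated counts limit every transcript.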
